A study of Triticum aestivum with 8 samples.

Results

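A group of 4 histone genes of bread wheat (Triticum aestivum) was followed in crown tissue through cold acclimation: H2A-2, H2A-3 and H2A-9, which encode forms of histone H2A, and wcH2B-8, which encodes a form of histone H2B. The members were all probe sets whose only symbol in the array annotation belongs to one of the 4 genes, and each probe set was kept apart. The rule found 16 probe sets among the 61115 that were tested: 1 for H2A-2, 2 for H2A-3, 6 for H2A-9 and 7 for wcH2B-8. The genes were selected on their signal in the same 4 groups, where it was much lower after cold acclimation, so that the differences with cold acclimation given for these 16 probe sets are a description and carry no test.

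The plants were 2 azide-induced mutant lines of the winter wheat cultivar Winoka, SD16029, called freeze resistant (FR), and SD16169, called freeze susceptible (FS). Both were picked among plants raised from azide-treated seed and carry mutations that the labels do not map, so that a difference between the lines stands for 1 line against 1 line. Plants of the non-treated groups (NT) came from a greenhouse at 22 to 28°C (25°C in the labels) and were harvested at the leaf stage 3 to 4, while cold-acclimated plants (CA) were moved at that stage to 4°C and harvested 4 weeks later. Cold and the 4 further weeks before harvest therefore cannot be told apart. Each of the 4 groups (FR NT, FS NT, FR CA, FS CA) had 2 Affymetrix wheat arrays. RNA came from pooled crowns of 3 biological replicates, and by the study's account paired arrays are technical replicates. Standard errors, intervals and p-values therefore cover only the spread between arrays.

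Histones H2A and H2B pair as dimers, and these dimers sit on either side of the central H3-H4 tetramer of the nucleosome, the unit around which DNA is wound. Most H2A and H2B is made while DNA is copied, when each new DNA duplex has to be packed, and transcripts of these replication-dependent histone genes are therefore used as a sign of dividing cells. The crown, the stem base just above the roots from which a winter cereal regrows, holds the shoot apical meristem and the meristems of tillers and roots.

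Values are log2 gcRMA signals as the authors deposited them. A difference of 1 on this scale is a 2-fold difference, the array medians lay between 2.86 and 2.95, and the brightest probe sets lay between 16.70 and 16.89. Probe sets whose name ends in _at are specific to 1 design sequence, those ending in _s_at are shared by several transcripts, and those ending in _x_at hold some probes that also match other sequences. Wheat H2A and H2B are multigene families in 3 related genomes, so a probe set may read near-identical copies, and a value belongs to the probe set rather than to 1 gene copy. In the gene table of the IWGSC CS RefSeq v2.1 assembly, H2A-2 and H2A-3 lie near each other, with 3 protein-coding genes between them, while H2A-9 and wcH2B-8 each lie on another chromosome.

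In both lines 15 of the 16 probe sets were far lower in cold-acclimated crowns, by 29.8-fold to 1050.4-fold in FR and by 36.1-fold to at least 1779.8-fold in FS. The median log2 difference over all 16 was -6.53 in FR and -6.74 in FS, beside a median of 0 over all tested probe sets in each line. The 15 lay between 10.23 and 15.94 on NT arrays and between 2.82 and 9.32 on CA arrays, and the narrowest gap between the lowest NT and the highest CA array of a probe set was 4.67. No array of one treatment came near the other treatment in any of the 15. Both CA arrays lay below both NT arrays for 21.1% of all tested probe sets in FR and for 21.6% in FS, and both lay above them for 23.8% in FR and 25.1% in FS. In each line 15 of the 16 members were on the lower side and 1 on the higher side, and nothing is read from this count because the same values chose the genes. Whether fewer cells of a kind or less RNA per cell lowered a signal cannot be told apart in whole crowns.

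**Figure D1:**
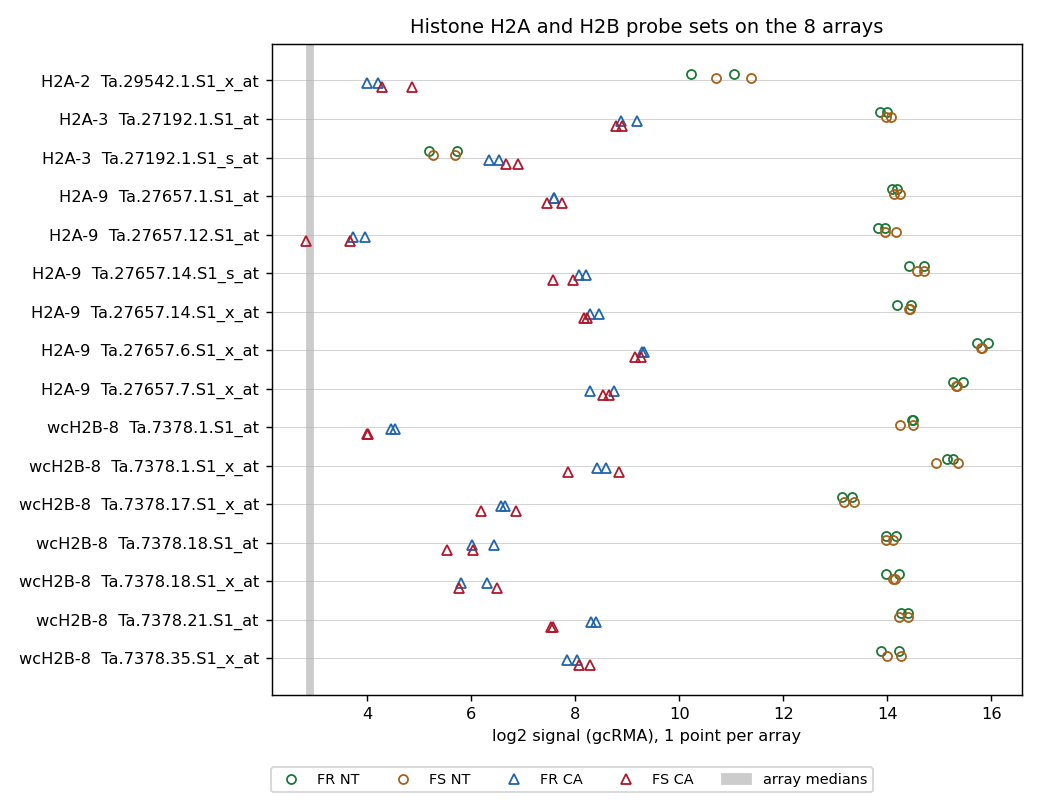
Log2 gcRMA signal (x axis) of the 16 histone H2A and H2B probe sets (rows) with 1 point per array, circles for NT and triangles for CA, coloured by line and treatment, with the range of array medians as a grey band. For 15 probe sets all CA arrays sit at 9.32 or lower and all NT arrays at 10.23 or higher, and for the H2A-3 probe set Ta.27192.1.S1_s_at the CA arrays sit to the right of the NT arrays.

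H2A-2 had 1 probe set, Ta.29542.1.S1_x_at. It read 11.05 and 10.23 on the FR NT arrays and 10.71 and 11.38 on the FS NT arrays. After cold acclimation it read 4.01 and 4.22 in FR and 4.86 and 4.29 in FS. Its NT arrays were more scattered than those of most of the other H2A and H2B probe sets, and its CA arrays lay not far above the array medians. The log2 difference was -6.53 in FR (SE 0.40, 92.3-fold lower) and -6.47 in FS (88.7-fold lower), so that the lines differed in it by -0.06, with a 95% interval of -1.55 to 1.44.

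H2A-3 had 2 probe sets built from the same design sequence, and these went opposite ways. Ta.27192.1.S1_at read 14.00 and 13.86 in FR NT and 13.97 and 14.08 in FS NT, against 8.88 and 9.19 in FR CA and 8.79 and 8.91 in FS CA. Its log2 difference was -4.90 in FR (29.8-fold lower) and -5.17 in FS (36.1-fold lower), the smallest differences among the 15 lower probe sets. Even so, these ranked 707 of 61115 in FR and 754 of 61115 in FS when all tested probe sets were ordered from the most negative difference.

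The probe set Ta.27192.1.S1_s_at, whose probes are shared by several transcripts, read 5.18 and 5.73 in FR NT and 5.69 and 5.27 in FS NT. On the CA arrays it read 6.35 and 6.54 in FR and 6.91 and 6.66 in FS. It was the only member that was higher after cold acclimation, with no overlap between treatments in either line, and its log2 difference was 0.99 in FR and 1.31 in FS. Relative to the poly-A spike-in controls, which read 0.70 higher on CA arrays than on NT arrays in both lines, these differences were 0.28 and 0.60. Leaving out 1 array at a time gave 0.71 to 1.26 in FR and 1.10 to 1.52 in FS. The 2 probe sets of this sequence thus differed from each other by -5.88 in FR and -6.48 in FS in their log2 differences, and which transcripts the shared probes read was not tested.

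H2A-9 had 6 probe sets, all lower after cold acclimation, with a median log2 difference of -6.53 in FR (range -10.04 to -5.95) and -6.67 in FS (range -10.82 to -6.22). The largest belonged to Ta.27657.12.S1_at, which read 13.82 and 13.95 in FR NT and 14.16 and 13.96 in FS NT. It read 3.74 and 3.96 in FR CA and 2.82 and 3.66 in FS CA, so that in FS one array lay under its own array median. Its log2 difference was -10.04 in FR (1050.4-fold lower) and -10.82 in FS as read, and with the low FS array raised to its array median the signal in FS was at least 1779.8-fold lower. It ranked 20 among all tested probe sets from the most negative difference in FR.

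The other 5 probe sets of H2A-9 stayed well above the array medians in the cold. Ta.27657.1.S1_at read 14.18 and 14.08 in FR NT, 14.13 and 14.24 in FS NT, 7.60 and 7.59 in FR CA and 7.74 and 7.45 in FS CA, with log2 differences of -6.54 and -6.59. Ta.27657.6.S1_x_at had the brightest arrays of the 16 probe sets and read 15.94 and 15.73 in FR NT, 15.79 and 15.82 in FS NT, 9.32 and 9.29 in FR CA and 9.16 and 9.27 in FS CA, with log2 differences of -6.52 and -6.59. Ta.27657.7.S1_x_at read 15.46 and 15.26 in FR NT, 15.32 and 15.35 in FS NT, 8.28 and 8.75 in FR CA and 8.53 and 8.65 in FS CA, with log2 differences of -6.85 and -6.75. In these 3 probe sets the FR and FS differences lay within 0.10 of each other.

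One design sequence of H2A-9 was read by a pair of probe sets. Ta.27657.14.S1_s_at read 14.70 and 14.41 in FR NT, 14.57 and 14.71 in FS NT, 8.08 and 8.21 in FR CA and 7.96 and 7.57 in FS CA. Ta.27657.14.S1_x_at read 14.46 and 14.19 in FR NT, 14.41 and 14.44 in FS NT, 8.29 and 8.46 in FR CA and 8.23 and 8.17 in FS CA. Here the shared and the cross-matching version went the same way, with log2 differences of -6.41 in FR and -6.88 in FS for the first and -5.95 and -6.22 for the second.

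wcH2B-8, the partner histone of the H2A genes in the dimer, had 7 probe sets, all lower after cold acclimation, with a median log2 difference of -6.71 in FR (range -9.98 to -5.97) and -6.79 in FS (range -10.36 to -5.96). Ta.7378.1.S1_at read 14.49 and 14.47 in FR NT and 14.25 and 14.49 in FS NT, against 4.45 and 4.55 in FR CA and 4.02 and 4.00 in FS CA. Its log2 difference was -9.98 in FR (1009-fold lower) and -10.36 in FS (1315-fold lower). The probe set Ta.7378.1.S1_x_at of the same design sequence read 15.27 and 15.15 in FR NT, 14.93 and 15.35 in FS NT, 8.60 and 8.42 in FR CA and 7.86 and 8.83 in FS CA. Its log2 differences were -6.71 and -6.79, so the log2 difference of the specific probe set minus that of the cross-matching one was -3.27 in FR and -3.57 in FS.

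A second pair of wcH2B-8 probe sets on 1 design sequence showed no such gap. Ta.7378.18.S1_at read 14.16 and 13.97 in FR NT, 13.98 and 14.10 in FS NT, 6.03 and 6.45 in FR CA and 6.04 and 5.55 in FS CA, and its log2 differences were -7.83 and -8.25. Ta.7378.18.S1_x_at read 14.21 and 13.97 in FR NT, 14.10 and 14.15 in FS NT, 6.30 and 5.81 in FR CA and 5.78 and 6.50 in FS CA, and its log2 differences were -8.04 and -7.99. Among the 11 pairs of _at and _x_at probe sets on 1 sequence in the clusters of H2A-9 and wcH2B-8, the 10 other than Ta.7378.1 had log2 differences within -0.73 to 0.77 of each other in either line.

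The last 3 probe sets of wcH2B-8 remained between 6.19 and 8.39 in the cold. Ta.7378.17.S1_x_at read 13.31 and 13.12 in FR NT, 13.16 and 13.37 in FS NT, 6.64 and 6.57 in FR CA and 6.19 and 6.86 in FS CA (log2 differences of -6.61 and -6.74). Ta.7378.21.S1_at read 14.39 and 14.26 in FR NT, 14.22 and 14.39 in FS NT, 8.31 and 8.39 in FR CA and 7.58 and 7.53 in FS CA (log2 differences of -5.97 and -6.75). In this probe set both cold-acclimated FR arrays lay clear of both FS arrays while the NT arrays of the lines were interleaved. Ta.7378.35.S1_x_at read 14.22 and 13.88 in FR NT, 13.99 and 14.27 in FS NT, 7.84 and 8.04 in FR CA and 8.28 and 8.07 in FS CA (log2 differences of -6.11 and -5.96).

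In each line 3 of the 16 probe sets were among the 100 most negative differences and 15 among the 1000 most negative. A log2 difference of -4 or lower was found in 1164 tested probe sets in FR and 1354 in FS, so that many other probe sets had differences of this size. The within-group SD pooled over the groups was 0.09 to 0.43 per member. In a single group the highest SD was 0.69, for Ta.7378.1.S1_x_at in FS CA. Leaving out 1 array at a time turned none of the members' differences, and the largest move was 0.49 on the log2 scale, a factor of 1.40. By kind of probe set, the median log2 difference was -7.18 in FR and -7.50 in FS for the 6 _at probe sets and -6.57 and -6.67 for the 8 _x_at probe sets. In the NT groups the 15 lower members ranked between percentile 90.4 and 99.9 of all tested signals, and in the CA groups between 52.4 and 82.9.

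**Figure D2:**
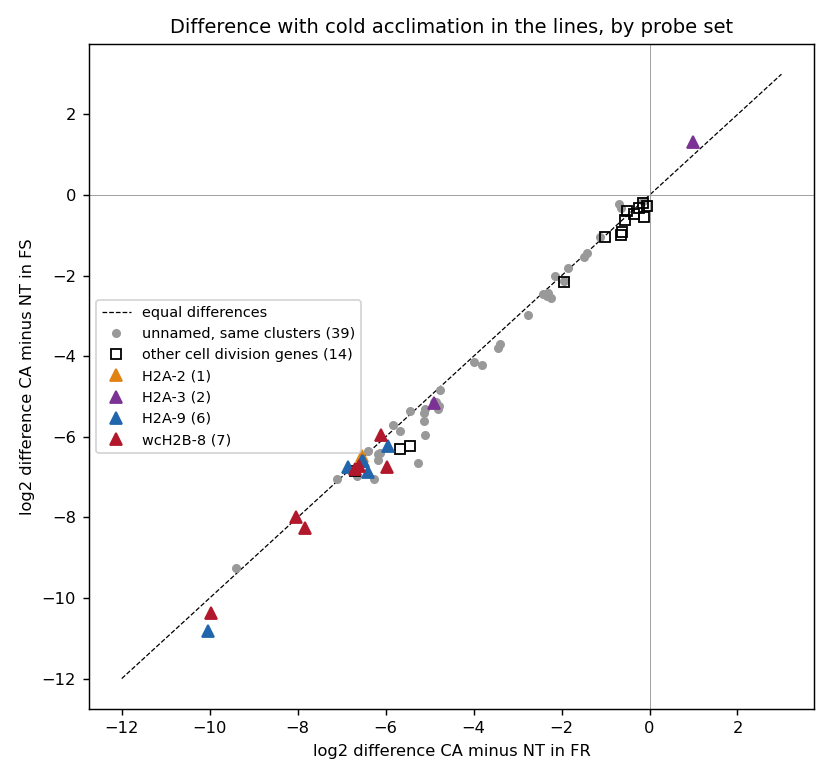
Log2 difference CA minus NT in FR (x axis) against FS (y axis), 1 point per probe set, with triangles for the 16 histone H2A and H2B probe sets, squares for the 14 other cell division probe sets and grey points for the 39 unnamed probe sets of the same clusters. All groups lie close to the dashed line of equal differences, with the histones at -4.90 or lower except 1 H2A-3 probe set at 0.99 and 1.31. The axes have no array in common.

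The comparison of the lines asked whether the freeze resistant and the freeze susceptible plants differed in these histones, and for this the members were tested. Before the cold, limma called 0 of the 16 probe sets different between FR and FS, beside 0.0213% of all tested probe sets, with 0 at an unadjusted p under 0.05. With so small a share called among all probe sets, 0 of 16 says little about these histones, here and in the line comparisons that follow. FR minus FS had a median of -0.04 over the members (range -0.41 to 0.11), FR was higher in 6 of 16, and all 16 intervals, which together spanned -1.47 to 1.01, held 0. The lower end belonged to H2A-2, whose NT arrays were scattered. Differences of more than 1 log2 unit thus lie within the intervals of the noisier probe sets.

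After cold acclimation limma called 0 of 16 members different between the lines, beside 0.373% of all tested probe sets, with 2 at an unadjusted p under 0.05. With 1 array left out, the number of calls over all tested probe sets, 228 here, ranged from 32 (without FR NT 1) to 2170 (without FR CA 1), so this background is itself unsteady. The median of FR minus FS was 0.13 (range -0.47 to 0.80), FR was higher in 10 of 16, and the intervals spanned -1.52 to 1.39. The 2 probe sets whose interval did not hold 0 were both of wcH2B-8 and both higher in FR. Ta.7378.21.S1_at was 0.80 higher in FR (95% interval 0.58 to 1.02, adjusted p = 0.0663), and Ta.7378.1.S1_at was 0.49 higher (0.26 to 0.72, adjusted p = 0.208). The adjusted p of Ta.7378.21.S1_at was 0.0483 when each array was centred on its median, 0.0316 when only probe sets above the array median were tested and 0.0343 when values under the array median were raised to it, so that this 1 call depends on the setting. The other 5 probe sets of wcH2B-8 and all 9 of the H2A genes had intervals that held 0.

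The difference in response, the difference with cold in FR minus that in FS, was called for 0 of 16 members by limma, beside 0.108% of all tested probe sets, with 2 at an unadjusted p under 0.05. It was positive, meaning a smaller reduction in FR, in 11 of 16, with a median of 0.11 and intervals that spanned -1.55 to 1.89. Nothing is read from this or the other counts of signs among the members. Probe sets of 1 gene are not independent, and the share of all tested probe sets with each sign was not counted. The largest values were 0.78 for Ta.27657.12.S1_at (-0.33 to 1.89), where 1 FS array was near background, and 0.78 for Ta.7378.21.S1_at (0.47 to 1.08, adjusted p = 0.252).

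**Figure D3:**
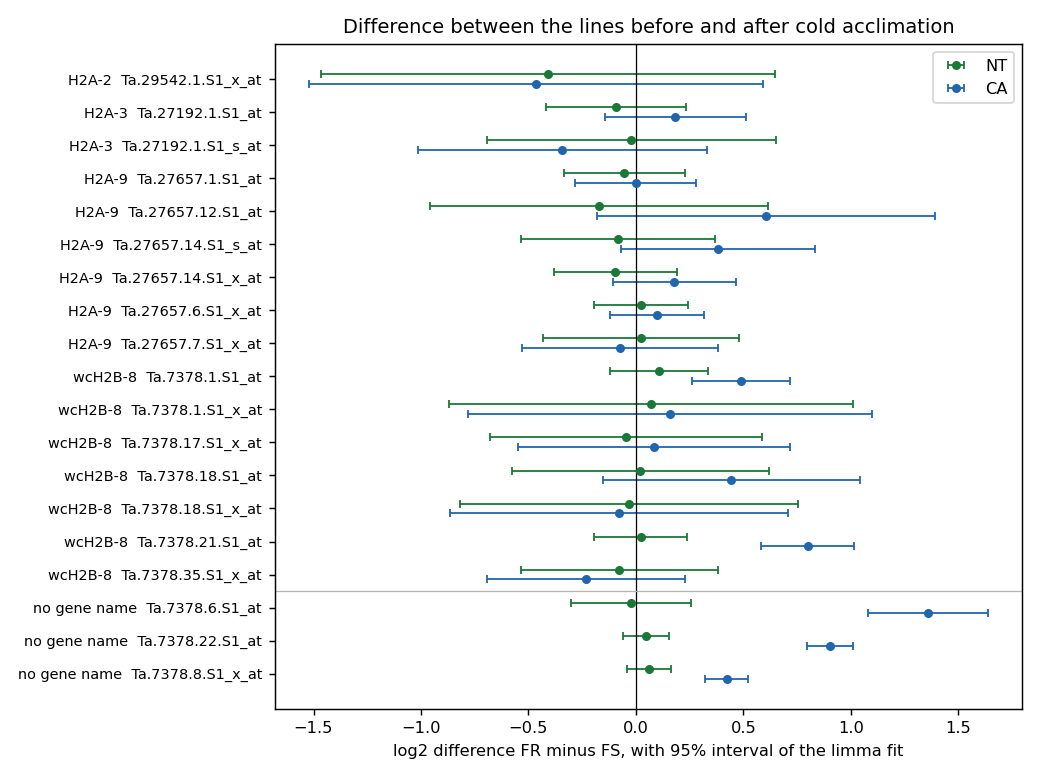
Log2 difference FR minus FS (x axis) in NT (green) and CA (blue) with the 95% interval of the limma fit, for the 16 histone H2A and H2B probe sets and, under the grey line, 3 unnamed probe sets of the wcH2B-8 cluster. In NT all 16 member intervals cross 0, and in CA the 2 that do not belong to wcH2B-8, at 0.49 and 0.80.

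The array names probe sets after the sequence cluster they were designed from, and many probe sets in the clusters of H2A-9 (Ta.27657) and wcH2B-8 (Ta.7378) carry no gene symbol in the annotation. There were 39 of these, 31 in Ta.7378 and 8 in Ta.27657, and none in the clusters of H2A-2 and H2A-3. They were listed after the files had been read, they may share probes or near-identical sequence with the members, and they are therefore not independent of them. Their calls with cold acclimation may repeat the lower signal on which the genes were selected, and are no separate support. With cold acclimation 39 of 39 fell in FR and 37 of 39 in FS by limma, and 0 rose, beside 13.6% of all tested probe sets called lower in FR and 13.8% in FS. Their median log2 difference was -4.78 in FR and -5.13 in FS, beside 0 over all tested probe sets. The reduction was smaller than that of the members, but nothing is read from this, because the members' genes were selected on their lower signal.

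In the wcH2B-8 cluster the unnamed probe sets reached log2 differences near 0. None of the named ones lay there, but their gene was selected on its lower signal in the cold. In the H2A-9 cluster 7 of 8 had a log2 difference of -4 or lower in each line. The remaining 1, Ta.27657.3.S1_at, read 11.63 and 11.60 in FR NT and 10.52 and 10.45 in FR CA, a log2 difference of -1.13. In the wcH2B-8 cluster 14 of 31 were at -4 or lower in FR and 16 in FS, 14 and 12 lay between -4 and -1, and 3 in each line lay between -1 and 0. At one end Ta.7378.29.S1_at read 13.25 and 13.26 in FR NT and 12.87 and 13.36 in FS NT. It read 3.86 and 3.86 in FR CA and 3.86 and 3.83 in FS CA, a log2 difference of -9.40 in FR and -9.27 in FS. At the other end Ta.7378.4.S1_at read 13.64 and 13.65 in FR NT and 13.49 and 13.49 in FR CA, a log2 difference of -0.15. The probe sets not called in FS by limma were Ta.7378.19.S1_at (-0.23, adjusted p = 0.410) and Ta.7378.19.S1_x_at (-0.32, adjusted p = 0.173), both of 1 sequence. The sequence cluster that holds wcH2B-8 thus also held probe sets that were nearly as bright in the cold as before it.

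**Figure D4:**
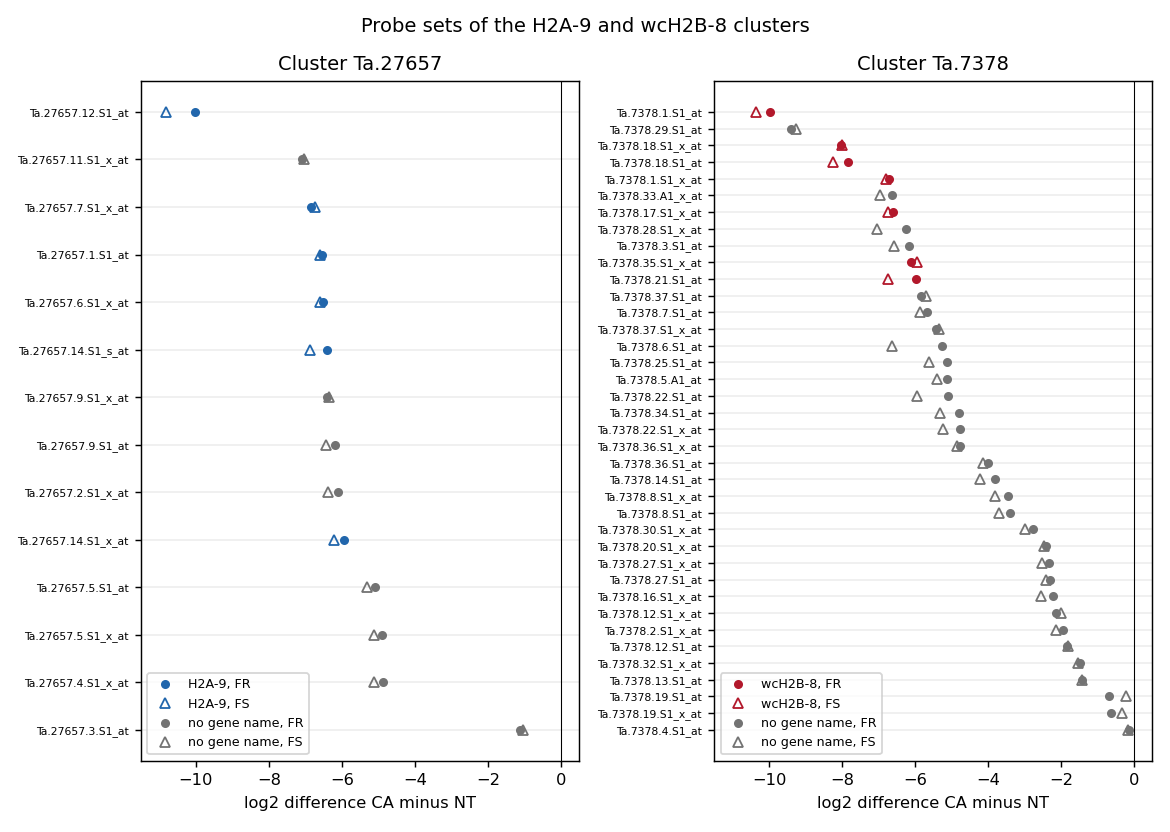
Log2 difference CA minus NT (x axis) of every probe set in the clusters of H2A-9 (left) and wcH2B-8 (right), ordered by the difference in FR, with filled points for FR and open triangles for FS, coloured where the annotation gives the gene and grey where it gives none. Named probe sets lie at -5.95 or lower, and unnamed ones of Ta.7378 reach from -9.40 to -0.15 in FR.

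Between the lines, 3 of the 39 unnamed probe sets were called in CA, all higher in FR and all in the wcH2B-8 cluster, with 13 at an unadjusted p under 0.05. The share of 7.69% lies beside the 0.373% over all tested probe sets, but members of 1 cluster do not vary independently. Ta.7378.6.S1_at read 8.28 and 8.19 in FR CA and 6.80 and 6.95 in FS CA, 1.36 higher in FR (SE 0.11, adjusted p = 0.0342). Ta.7378.22.S1_at read 9.73 and 9.79 in FR CA and 8.81 and 8.90 in FS CA, 0.90 higher in FR (SE 0.04, adjusted p = 0.0101), and Ta.7378.8.S1_x_at was 0.42 higher (adjusted p = 0.0485). In NT 0 of 39 were called, with 1 at an unadjusted p under 0.05. The difference in response was called for Ta.7378.22.S1_at alone (0.86, adjusted p = 0.0447), with 7 at an unadjusted p under 0.05, and it was positive in 29 of 39. That call was lost under each of the other scalings, filters and variance settings tried and with the replicate block, with adjusted p from 0.0601 to 1.00. Without FR NT 1, without FR NT 2, without FS NT 1 or without FS NT 2, 0 of the 39 were called in CA, as with robust variances or a fit on only the groups compared, and with the replicate block or relative to the spike-ins 1 was. Over all 39, FR was higher in CA in 27. Nothing is read from these counts of signs, because the share over all tested probe sets was not counted.

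Other cell division genes were taken from a list of histones, chromatin proteins, cyclins, cyclin-dependent kinases, replication factors and tubulins. No cyclin, kinase or replication gene matched a symbol of the annotation, so the list came down to 14 probe sets of another H2B gene, the DNA-binding high mobility group gene Hmgb3, and tubulins. By limma 10 of 14 fell in FR and 10 of 14 in FS and 0 rose, beside the 13.6% and 13.8% of all tested probe sets called lower, with a median log2 difference of -0.59 in FR and -0.77 in FS. Several of these genes had more than 1 probe set, so the 14 are not independent of each other. The share over all tested probe sets also covers faint ones with little room to fall. The count in FR was 6 without FR NT 1, without FR NT 2 or without FR CA 2. At an unadjusted p under 0.05 there were 10 in FR and 13 in FS. The reductions were mostly far smaller than those of the H2A and H2B probe sets, whose genes were selected on their lower signal in the cold.

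The exception among the chromatin genes was wcH2B-6, the other named H2B gene on the array. Its probe set Ta.27708.1.S1_at read 14.71 and 14.21 in FR NT, 14.38 and 14.70 in FS NT, 9.03 and 8.99 in FR CA and 8.46 and 8.18 in FS CA. It fell by 5.45 on the log2 scale in FR (43.7-fold, adjusted p = 0.000162) and by 6.22 in FS (74.7-fold, adjusted p = 0.000109), and the log2 differences of Ta.27708.1.S1_x_at, also called, were -5.67 and -6.29. Hmgb3 had log2 differences of -0.23 and -0.32 in Ta.30768.1.S1_x_at, neither called, and of -0.05 and -0.27 in Ta.30768.3.S1_x_at, of which that in FS was called (adjusted p = 0.00805). The 2 probe sets of wcH2B-6 thus lay with wcH2B-8, and those of Hmgb3 near 0.

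Tubulins form the microtubules of the spindle and also those that guide cell wall growth in cells that do not divide. Of their 10 probe sets 8 fell in FR and 7 in FS. The beta-tubulin genes tubb1 (Ta.212.1.S1_at, -1.93 and -2.17) and tubb3 (Ta.2837.1.S1_s_at, -1.01 and -1.03) fell most among the beta-tubulins, and Tubb4 (Ta.28022.1.S1_x_at) fell by 0.56 and 0.63. Of Tubb5, Ta.214.2.A1_at (-0.65 and -1.0), Ta.214.2.A1_x_at (-0.62 and -0.92) and Ta.214.1.S1_x_at (-0.36 and -0.48) were called in both lines, and Ta.214.1.S1_at (-0.13 and -0.54) in neither. By limma the FR call of Ta.214.1.S1_x_at was lost after quantile normalization (adjusted p = 0.191) and with robust variances (0.0821). It was also lost without the intensity trend, with the replicate block and on only the groups compared (0.0512 to 0.193). Its FS call was lost after quantile normalization (0.0508). The FR call of Ta.214.2.A1_x_at was lost with the replicate block (0.0501) and on only the groups compared (0.106). Ta.214.1.S1_at gained an FS call under some settings. For tubb2 (Ta.1544.1.S1_at) the log2 difference was -0.50 in FR (adjusted p = 0.0463) and -0.40 in FS (adjusted p = 0.0913), and the call in FR was lost with robust variances (0.0613), without the intensity trend (0.0533), with the replicate block (0.0732) and on only the groups compared (0.0663). The alpha-tubulin probe set Ta.723.1.S1_at went from 8.73 to 9.13 over NT arrays down to 2.15 to 2.32 over CA arrays. The CA values lay at or near the array floor of 2.15 and under the array medians. With them raised to the array medians, the signal was at least 66.4-fold lower in FR and at least 71.4-fold lower in FS. The other alpha-tubulin probe set of the same gene, Ta.812.1.S1_x_at, had log2 differences of -0.15 and -0.20, neither called. Between the lines limma called 0 of the 14 cell division probe sets in NT, in CA or in their response. Of all tested probe sets 0.0213%, 0.373% and 0.108% were called, so 0 of 14 says little about these genes. At an unadjusted p under 0.05 there were 0, 4 and 2 of the 14. In CA the wcH2B-6 probe set Ta.27708.1.S1_at was 0.69 higher in FR (95% interval 0.11 to 1.27, adjusted p = 0.520 by limma). Ta.27708.1.S1_x_at was 0.56 higher in FR, with an interval of -0.17 to 1.28 that held 0.

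For each histone gene the 3 named probe sets of other genes with the nearest pattern were sought among 883, by the root mean square distance between centred group means over the 4 groups. H2A-9 and wcH2B-8 had the same 3 neighbours, LOC543477 (distances of 0.04 and 0.14 log2 units), LOC543145 (0.06 and 0.17) and LOC543137 (0.14 and 0.17). H2A-2 was nearest to LOC100037572 (0.18), LOC100037579 (0.19) and LOC542846 (0.27). For H2A-3, whose pattern is the mean of a lower and a higher probe set, they were LOC543235 (0.01), LOC543332 (0.03) and LOC543239 (0.05). With 4 groups and a pattern ruled by treatment, such nearness says only that the genes had a similar difference between NT and CA.

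Over all tested probe sets 17687 were called with cold acclimation in FR, 52.9% of them higher in CA, and 18419 in FS, 54.3% higher. This split moved with the scaling, to 78.2% and 78.7% higher with centred arrays, to 22.3% and 23.1% with values under the array median raised to it, and to 11.2% and 12.2% relative to the poly-A spike-ins, under which the median of all probe sets was -0.70 in both lines. Relative to the spike-ins the median log2 difference of the 16 histone probe sets was -7.23 in FR and -7.45 in FS. No crown marker list was available, and crowns are described by the study as non-photosynthetic. Of 34 probe sets of green leaf genes (rbcL, PRK, OEE1, OEE2, petC), 23 lay under the array median on all arrays. The median log2 difference of the 34 was -0.01 in each line. By limma 5 of 34 fell and 0 rose in each line. Of all tested probe sets 13.6% in FR and 13.8% in FS were called lower. The 23 under the array median had little room to fall. The share and the median of the 34 therefore say little about the brighter leaf probe sets. All 5 that fell read above the array median on every array. The falls were 132.7-fold in FR and 60.8-fold in FS for PRK, an enzyme of the Calvin cycle, which lie within the range of the histone folds, 14.5-fold and 13.9-fold for one OEE2 probe set and 31.8-fold and 26.0-fold for the other, 2.52-fold and 2.03-fold for OEE1 and 1.76-fold and 1.58-fold for petC. The 2 rbcL probe sets that read above 16 on all arrays were not called. The log2 of the summed signal of all 34, to which these rbcL probe sets add most, was 17.90 to 17.97 in FR NT and 17.43 to 17.57 in FR CA, and 17.84 to 18.18 in FS NT and 17.48 to 17.50 in FS CA. The summed leaf signal was thus lower on the CA arrays, as was the signal of 15 of the 16 histone probe sets. Any part of leaf tissue in the histone values was not tested.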

How the data were processed

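RNA of wheat crowns was hybridised to 8 Affymetrix wheat arrays, 2 per group. Background correction and normalization by gcRMA, run by the authors in R/Bioconductor, gave the deposited log2 values of 61290 probe sets. RMA and GCRMA are the tools named in the submitters' processing notes, without versions. Signals at the floor have no order, and the small number of arrays limits precision.

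The deposited log2 values were used as they were. After 175 control probe sets were left out, limma 3.58.1 in R 4.3.3 was fitted to 61115 probe sets with a mean per group (lmFit, contrasts, eBayes with an intensity trend), and p-values were adjusted by Benjamini-Hochberg within each contrast and called under 0.05. The spread was shared by the 4 groups (4 residual and 0.623 prior degrees of freedom). The share of all tested probe sets at an unadjusted p under 0.05 was not counted, so counts at that threshold have no background beside them. A check of the fit on simulated data required only that the largest differences set there were recovered. It does not bear on small differences between the lines or on the spread between plants.

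Of the probe sets 1273 had 1 symbol in the annotation, an old list of LOC symbols, and 1272 of these matched the RefSeq gene table of IWGSC CS RefSeq v2.1. The 4 gene names were found through the Entrez ID and the other names of that table. Named were all probe sets of the 4 genes, all of the cell division list, and the 3 nearest probe sets per gene (group means above the median in all 4 groups). The members and lists were chosen with earlier results of these data known, and the list of unnamed cluster probe sets, with the examples named from it, was chosen after seeing the data. Alternatives were other scalings, filters, variance models, a replicate block, fits on fewer groups and leaving out each array. Promoter sequences were not analysed here. Percentiles rank signals and do not compare transcript amounts between genes.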

Additional observations from a re-analysis of the deposited data

Results flagged for a closer look

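A line difference in cold response was called for 1 probe set, the unnamed Ta.7378.22.S1_at of the wcH2B-8 cluster. Its log2 difference with cold acclimation was -5.10 in FR and -5.96 in FS, a difference in response of 0.86 (95% interval 0.70 to 1.01, adjusted p = 0.0447 by limma). It read 14.85 and 14.86 in FR NT, 14.79 and 14.84 in FS NT, 9.73 and 9.79 in FR CA and 8.81 and 8.90 in FS CA. The adjusted p was 0.0765 with centred arrays, 0.114 after quantile normalization, 0.447 with robust variances, 0.0601 without the intensity trend, 0.0607 with probe sets above the array median only, 0.0602 with values raised to the array median and 0.0944 with the replicate block, while relative to the spike-ins it was 1.00.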

How the results depend on the processing

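With 2 arrays a group, the members' intervals between the lines in CA reached from -1.52 to 1.39, and the cold signal of Ta.27657.12.S1_at lay close to the array medians. Of the summary results 224 stayed and 28 moved. A median was taken to stay if it moved by less than the within-group SD, and a count if it kept within a set ratio of the main count. A cell division count in FR of 7 or 14, beside 10 in the main fit, was thus taken to stay. Of values for single probe sets 2613 stayed, 62 moved, 23 became called, 74 lost their call and 0 reversed. The cause of the moves was not tested. The members' median was -7.23 in FR and -7.45 in FS relative to the spike-ins, and between -6.67 and -6.45 in FR and between -6.82 and -6.61 in FS with 1 array left out. Members called between lines in CA were 1 with centred arrays, 1 above the array median only and 1 with values raised to it. Cell division calls in FR ranged from 6 to 9 with 1 array left out.

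Of the unnamed cluster probe sets, chosen after seeing the data, calls between lines in CA were 1 relative to the spike-ins, 0 with robust variances, 0 with only the groups compared, and 0 to 4 with 1 array left out. In their response there were 0 with centred arrays, relative to the spike-ins, after quantile normalization, above the array median only, with values raised to it, with robust variances and without a trend, and 1 to 2 with 1 array left out. In NT there were 0 to 1 with 1 array left out. The difference in response has no fit on only the groups compared.

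Same-numbered arrays of 2 groups shared deviations with correlations from 0.0942 to 0.404, and nothing says that a number marks a shared batch. With the replicate block the unnamed probe sets called in CA were 1 and in response 0, the cell division calls 7 in FR and 10 in FS, and the members called 0. Over all probe sets the block moved calls from 13 to 9 in NT, from 228 to 35 in CA and from 66 to 22 in response. Over all probe sets the calls with cold, 17687 in FR and 18419 in FS, were 41893 and 43048 once arrays were centred, 46129 and 46613 relative to the spike-ins and 48380 and 48997 with values raised to the array median. Calls between lines over all probe sets, 13 in NT, 228 in CA and 66 in response, were 7, 283 and 93 once arrays were centred, 2, 428 and 192 relative to the spike-ins, 0, 259 and 21 above the array median only, 1, 295 and 83 with values raised to it, 4, 35 and 15 with robust variances, and 28 and 53 in NT and CA with only the groups compared. With 1 array left out they ranged from 14 to 1212 in NT, from 32 to 2170 in CA and from 888 to 1862 in response.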
